A study of Mus musculus with 2 samples.

Results

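The genes described here are 33 genes of the endoplasmic reticulum (ER), out of 27998 genes counted, that receive, cut, glycosylate, fold and quality-control secreted proteins. They were taken as a list of gene symbols by function, with earlier results of these data known. All 33 were found in both libraries. They fall into 7 roles. The 7 translocon genes are Sec61a1, Sec61b, Ssr1, Ssr2, Ssr3, Ssr4 and Tram1. The 4 signal peptidase genes are Spcs1, Spcs2, Spcs3 and Sec11c. The 2 oligosaccharyltransferase genes are Krtcap2 and Ostc. These 13 genes are called the entry machinery below. The 9 chaperones and their cofactors are Hspa5, Hsp90b1, Calr, Canx, Dnajb9, Dnajc3, Sdf2l1, Manf and Creld2, and the 4 disulfide isomerases are Pdia3, Pdia4, Pdia6 and P4hb. The 4 regulators of the unfolded protein response are Atf4, Ddit3, Xbp1 and Trib3, and the 3 genes of ER-associated degradation (ERAD) are Herpud1, Sel1l and Edem1.

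Submandibular glands of mice aged 12 weeks were dissociated whole and sequenced as droplet-based single-cell 3'-end libraries. There was 1 library labelled p63 wild-type and 1 library labelled p63 KO, a knockout of the epithelial transcription factor p63 (gene symbol Trp63). Another label calls the source primary epithelial progenitor cells, but both libraries also held clusters with endothelial, macrophage and natural killer (NK) cell markers. The means and time of p63 removal, the cells it affected, the strain and sex of the mice and any pooling of animals are not given in the labels. With 1 library per genotype no difference below has a replicate check, genotype and library cannot be told apart, and every interval covers counting error only.

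The wild-type library had 1970 barcodes and 8811082 unique molecular identifiers (UMIs), of which 1663 barcodes had at least 200 genes and under 20% mitochondrial UMIs. The KO library had 4726 barcodes and 11828669 UMIs, of which 2423 barcodes (51.3%) were kept. The median kept wild-type cell had 3406 UMIs and the median kept KO cell 2088, and 7 kept barcode sequences occurred in both. Trp63 had 149 UMIs among kept wild-type cells, or 18.8 CPM (UMIs scaled to a total of 1000000), and 20 UMIs (2.91 CPM) among kept KO cells. Within classes it was at 55.9 CPM in 400 wild-type and 13.9 CPM (5 UMIs) in 114 KO basal duct-like cells. Myoepithelial-like cells had 89.6 and 47.8 CPM, with a UMI in 35.3% and 15.3% of cells. The labels do not give the deleted part of the gene, so these 3'-end tags may lie outside it and then check nothing. Acinar transcripts were also counted in other classes, unevenly. Smgc stood at 9356 CPM in wild-type and 60.1 CPM in KO macrophage-like cells, and at 390 and 61.3 CPM in endothelial-like cells. Whether these counts came from free RNA in the droplets or from doublets was not tested. Cells were clustered without the genes described here and named from marker genes, so each class is given as "-like". The acinar-like cells formed a class with Smgc among the most enriched genes of its clusters (273 wild-type and 139 KO cells), called Smgc-rich below. A second class was led by Mucl2 and secretoglobins (156 and 29 cells). By level the Smgc-rich class differed between the libraries. Its wild-type cells had more Smgc (179313 CPM) than Pip (60448 CPM), and its KO cells more Pip (121600 CPM) than Smgc (40895 CPM).

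Secreted proteins enter the ER while they are being made. The Sec61 channel threads the growing chain through the membrane, the signal peptidase removes the leading peptide, and the oligosaccharyltransferase attaches sugars. Chaperones and disulfide isomerases then fold the chain, and chains that fail are sent back to the cytosol for ERAD. Accumulating unfolded chains trigger the unfolded protein response, in which the transcription factors ATF6, XBP1 and ATF4 raise the genes for folding and degradation. Salivary acinar and granular tubule cells are known for exporting protein in bulk.

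ATF6 and XBP1 are known to act through the ER stress response element, which is CCAAT and CCACG with 9 bases of any kind between them, and a shorter form, ATTGG and CCACG with 1 base between them. Both were searched on both strands in RefSeq promoter windows (build GRCm38.p6, 250 bases before to 50 after each gene's start), which covered 26 of the 33 genes. The long element was present in 39 of 32851 windows (0.119%) and in 7 of the 26. These were the windows of Hspa5, Hsp90b1, Calr, Canx, Creld2 and Dnajc3 among 8 chaperones searched, and of Pdia6 among 4 isomerases. It was in none of the 7 entry machinery windows. The short element was in 12 windows (0.0365%), including those of Herpud1 and Krtcap2. The XBP1 motif TGACGTGG, held by 222 windows (0.676%), and the ATF4 motif TGATGCAAT, held by 63 (0.192%), were in none of the 26. Only the exact letters were searched, so variant forms of these motifs were not counted, and the absence of a match does not show that a gene lacks such a site. A match is a string of letters, not evidence of binding. The promoters of Hspa5, Herpud1 and Sec61b are shown in full because these genes carry the differences described below, and capitals mark the element. Hspa5 (chr2:34771840-34772139, plus strand) has the long element, Herpud1 (chr8:94386179-94386478, plus strand) the short one, and Sec61b (chr4:47474411-47474710, plus strand) neither.
Hspa5: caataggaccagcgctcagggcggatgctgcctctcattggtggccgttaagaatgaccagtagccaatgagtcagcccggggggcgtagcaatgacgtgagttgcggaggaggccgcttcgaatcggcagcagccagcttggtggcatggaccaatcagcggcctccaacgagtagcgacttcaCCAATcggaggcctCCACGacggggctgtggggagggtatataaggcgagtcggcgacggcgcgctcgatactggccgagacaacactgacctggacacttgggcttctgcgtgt
Herpud1: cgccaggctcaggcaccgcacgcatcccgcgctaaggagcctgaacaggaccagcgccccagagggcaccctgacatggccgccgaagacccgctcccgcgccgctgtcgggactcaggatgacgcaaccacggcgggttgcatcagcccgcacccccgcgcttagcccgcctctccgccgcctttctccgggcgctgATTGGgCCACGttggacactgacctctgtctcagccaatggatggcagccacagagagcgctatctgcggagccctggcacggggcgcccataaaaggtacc
Sec61b: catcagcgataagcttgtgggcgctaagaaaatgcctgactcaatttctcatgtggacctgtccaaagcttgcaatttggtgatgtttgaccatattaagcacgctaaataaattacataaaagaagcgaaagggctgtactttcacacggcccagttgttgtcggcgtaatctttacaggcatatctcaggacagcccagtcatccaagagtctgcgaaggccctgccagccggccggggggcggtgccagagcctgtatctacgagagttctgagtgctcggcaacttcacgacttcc

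The sites in the other chaperone and isomerase windows are shown to compare their spacers, read on the strand that carries the element, with the fixed letters in capitals. They began 162 bases before the start in Calr, 145 in Canx, 126 in Creld2, 105 in Dnajc3 and 98 in Pdia6. Hsp90b1, an ER member of the HSP90 family, had 2 sites, at 212 and 107 bases.
Calr: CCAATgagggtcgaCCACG
Canx: CCAATcaccacgctCCACG
Creld2: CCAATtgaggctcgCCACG
Dnajc3: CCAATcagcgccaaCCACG
Pdia6: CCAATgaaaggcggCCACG
Hsp90b1 distal: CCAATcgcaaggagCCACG
Hsp90b1 proximal: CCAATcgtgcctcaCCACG

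The RNA of the 33 genes was made up differently in acinar-like cells from every other class. In the wild-type library the entry machinery gave 59.8% of these genes' UMIs in Smgc-rich acinar-like cells (95% binomial interval 58.7 to 60.9) and 54.4% in Mucl2-rich ones (53.1 to 55.7). In the 11 other classes it gave 26.7% (basal duct-like) to 38.6% (NK-like). In the KO library the acinar-like values were 47.6% (45.4 to 49.9) and 49.1% (46.4 to 51.8), and the 13 other classes, unnamed cells included, ran from 10.5% (macrophage-like) to 37% (NK-like). The acinar-like intervals lay above those of every other named class in their own library. This share needs no scaling between classes, so the secretory transcripts that fill acinar-like libraries do not enter it. Granular tubule-like cells, which export kallikreins and growth factors, stood at 33.5% and 32.6%, inside the range of the other classes.

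**Figure D1:**
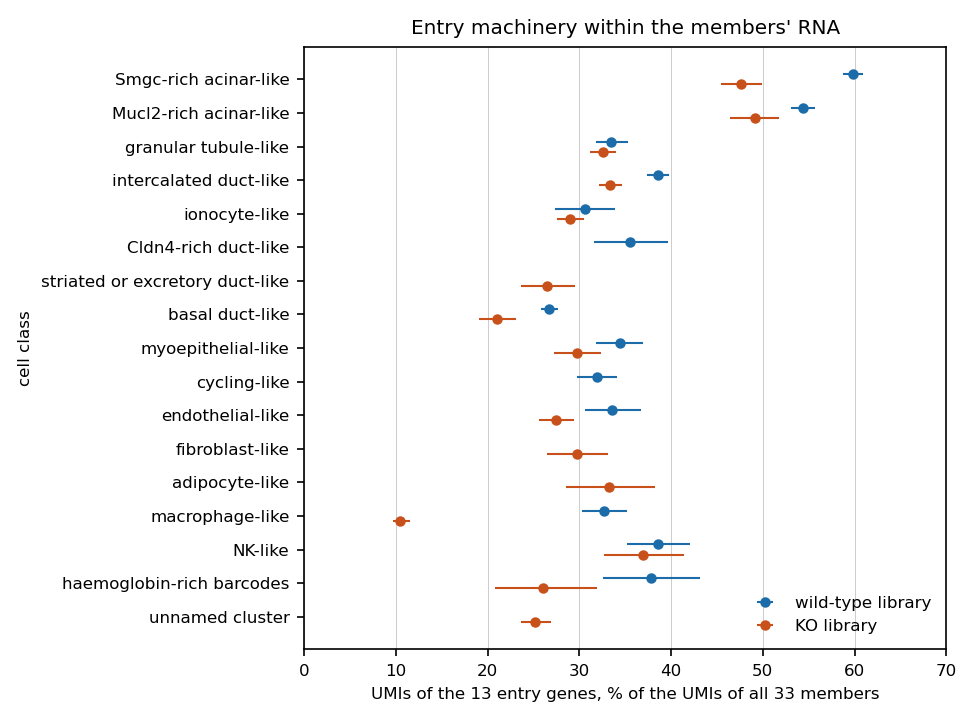
Share of the UMIs of the 33 genes that came from the 13 entry machinery genes (x axis, %), for each cell class (y axis) in the wild-type and KO libraries, with 95% binomial intervals as bars. Both acinar-like classes lie to the right of all others in each library, and KO macrophage-like cells lie furthest left, at 10.5%.

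The counterpart of the high entry share was a small share of Hspa5, which encodes the ER chaperone BiP (ENSMUSG00000026864, chr2:34771970-34777547, GRCm38). Hspa5 gave 6.66% of these genes' UMIs in wild-type Smgc-rich and 4.45% in Mucl2-rich acinar-like cells, against 20.3% in basal duct-like and 16.9% in macrophage-like cells. The same shares among KO cells were 3.97%, 3.58%, 25.7% and 49.5%. Within the wild-type Smgc-rich class the 2 clusters differed: 182 cells had 64.6% entry machinery with Hspa5 at 263 CPM, and 91 cells had 52.4% with Hspa5 at 646 CPM. With a stricter barcode filter (at least 500 genes and under 10% mitochondrial UMIs) the like cluster, of 85 cells, stayed unnamed: Smgc was among its leading genes, but the intercalated duct markers Wfdc18, Gfra3, Kit, Gstt1 and Elf5 were raised.

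All 33 genes together took 0.622% of the UMIs of wild-type Smgc-rich acinar-like cells, 0.579% in granular tubule-like, 0.520% in basal duct-like and 0.437% in endothelial-like cells. As a share of class UMIs the Smgc-rich level was thus not above every other class, since macrophage-like cells had 0.633%. Mucl2-rich cells had 0.297%, and their 20 most abundant genes took 83.3% of all UMIs. The KO values in the same order were 0.407%, 0.433%, 0.448% and 0.398%, with 1.03% in macrophage-like and 0.231% in Mucl2-rich cells. These shares depend on the class total, of which the 20 top genes took 36.7% in wild-type Smgc-rich cells. Per wild-type cell the 33 genes had 26.4 UMIs in Smgc-rich, 38 in Mucl2-rich and 27.3 in intercalated duct-like cells. Basal duct-like cells had 20.9, macrophage-like 18.7, granular tubule-like 16.7 and endothelial-like cells 14.5, at differing depths.

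**Figure D2:**
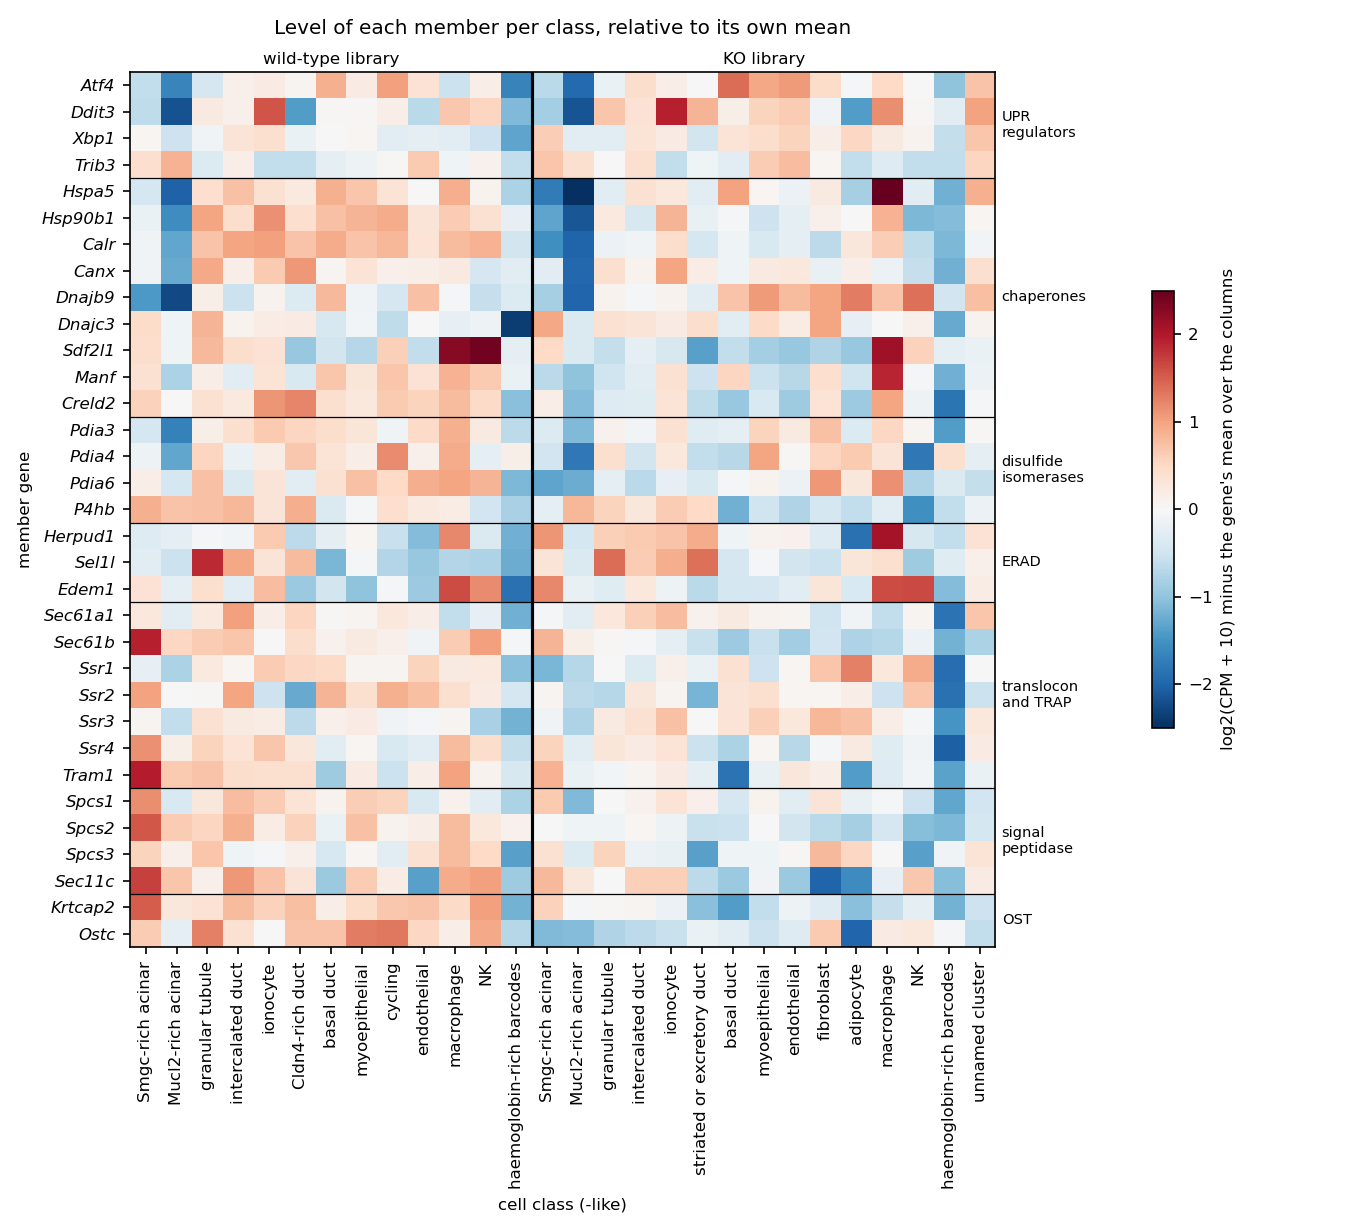
Level of each of the 33 genes (rows, grouped by role) in each cell class and library (columns), as the log2 of its CPM relative to its own mean over the columns, with 10 CPM added. Of the 13 entry machinery rows 8 are highest in the wild-type Smgc-rich column (Sec61b, Ssr2, Ssr4, Tram1, Spcs1, Spcs2, Sec11c and Krtcap2) and 5 in other columns, and Hspa5 is highest in KO macrophage-like cells.

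Acinar-like cells were compared with the pooled non-secretory cells (endothelial-, macrophage-, NK-like and, in the KO library, fibroblast-like) on the summed UMIs of each class. A gene was called where it had at least 50 UMIs over both sides and the interval of its CPM ratio lay wholly beyond 2-fold. Over both acinar-like classes of the wild-type library none of the 33 genes tested was higher, against 1.78% of the 4206 genes tested, and 7 were lower, against 26.8%. The 7 were Hspa5, Hsp90b1, Calr, Dnajb9, Sdf2l1, Pdia3 and Ddit3. Hspa5 fell from 767 to 236 CPM (ratio 0.307, interval 0.273 to 0.346), and Dnajb9, a BiP cofactor, from 96.5 to 14.9 CPM (0.155). Of 30 genes tested in the KO library, none was higher (3.13% of 4406 genes) and 8 were lower (33%): Hspa5, Hsp90b1, Calr, Dnajb9, Manf, Pdia6, Atf4 and Ddit3. Hspa5 was at 118 against 2101 CPM there (0.0561), where the macrophage-like level below weighs on the non-secretory pool. The median log2 ratio was -0.38 over these genes and -0.73 over all genes in the wild-type library, and -0.61 and -0.80 in the KO library.

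These directions depended on the scaling. When the 20 top genes and the mitochondrial genes were left out of each class total, 9 genes were higher and none lower in the wild-type library: Sec61b (3.67), Tram1 (3.93), Ssr4 (2.64), Spcs1 (3.39), Spcs2 (3.5), Sec11c (3.73), Krtcap2 (2.52), P4hb (3.85) and Dnajc3 (2.7). Of all genes 8.27% were then higher and 8.99% lower. The KO library then had 6 higher, among them Sec61b (4.62) and P4hb (4.24), and Hspa5 (0.111) and Dnajb9 (0.324) stayed lower, where 8.35% of all genes were higher and 18.9% lower. Rescaling multiplies all genes of a class by the same factor and so leaves the gap between roles. The summed translocon genes had a wild-type ratio of 1.28 (1.18 to 1.39) by class total and 2.92 without the top genes, and the chaperones 0.405 (0.379 to 0.433) and 0.925. The KO translocon ratios were 1.27 and 2.5, and the KO chaperone ratios 0.177 and 0.348. With cells thinned to 1000 UMIs each, 1 of 21 genes tested was lower by class total among wild-type cells (17% of all genes). Among KO cells 4 of 27 were lower (23.6%).

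Smgc-rich cells alone, in which the top genes take less of the total, had genes past the rule in both directions. Against non-secretory cells of the wild-type library 3 of 30 genes tested were higher (4.45% of all genes) and 1 was lower (12.5%). Sec61b, a small subunit of the Sec61 channel (ENSMUSG00000053317, chr4:47474658-47483242), was at 882 against 328 CPM (2.69, 2.31 to 3.15). Tram1, which helps chains into the channel, was at 364 against 130 CPM (2.8), and Spcs1, a signal peptidase subunit, at 359 against 138 CPM (2.6). Dnajb9 was the gene that was lower (0.251). The KO library had 1 of 29 higher (5.33%), Sec61b at 407 against 136 CPM (3.0), and 8 were lower (22.4%), namely the 8 named above for the KO library. Sec61b was thus the entry gene past the rule in both libraries. Mucl2-rich cells against the same pool had none of 31 genes higher (1.76%) and 11 lower (65.2%) in the wild-type library. Their KO counterpart, of only 29 cells, had 1 of 28 higher (1.06%), P4hb at 308 against 108 CPM (2.84), and 11 lower (67.2%).

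Single reference classes were compared in the same way. Against endothelial-like cells of the wild-type library Smgc-rich cells had 4 of 28 genes higher (4.58%), namely Sec61b (4.22), Tram1 (3.73), Spcs1 (3.09) and Sec11c (10.6), the catalytic signal peptidase subunit, with Dnajb9 lower (9.69%). Among KO cells 2 of 24 were higher (6.38%), Sec61b (3.47) and Sec11c (3.85), and Atf4, Hspa5 and Dnajb9 were lower (21.5%). Against wild-type basal duct-like cells 7 of 31 were higher (5.06%). Tram1 stood at 364 against 42.2 CPM (8.61, 6.65 to 11.3), Sec11c at 344 against 47.2 (7.28), Sec61b at 882 against 238 (3.71) and Spcs2 at 418 against 119 (3.51). Ssr4 (2.79), Krtcap2 (2.62) and the isomerase P4hb (2.52) completed the 7, and Atf4, Hspa5 and Dnajb9 were lower (13.8%). Among KO cells 4 of 24 were higher (6.02%), Sec61b (3.56), Tram1 (9.89), Sec11c (3.8) and Krtcap2 (4.51), and Atf4 and Hspa5 (0.14) were lower (12.8%).

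Other genes of the secretory pathway, from 6 lists that do not overlap the 33, were compared over both acinar-like classes pooled. Of 16 further sensors and outputs of the unfolded protein response, 9 were tested in wild-type acinar-like against non-secretory cells: Creb3l1, Chac1 and Asns were higher and Ppp1r15a lower. Creb3l1, an ER-anchored transcription factor, had 136 UMIs against 2 (43.1 against 3.33 CPM, ratio 13, 3.52 to 108), and Asns, asparagine synthetase, stood at 94.2 against 15 CPM (6.29). Of 22 further folding genes 16 were tested, and Fkbp11 (109 against 18.3 CPM, 5.95) and Agr2 were higher and Fkbp9 lower. Of 18 further ERAD genes 14 were tested, and Derl3, a member of the derlin channel family, was higher (58 against 3.33 CPM, 17.4) and Ube2j1 lower. None of the 11 targeting genes, 9 oligosaccharyltransferase genes and 14 ER-to-Golgi genes tested passed in either direction. Asns (6.26) and Fkbp11 (7.89) were also higher in KO acinar-like cells, as were Nupr1 (3.44) and Edem2 (4.27). These were the 4 higher of 62 tested there (3.13% of all genes). Another 8 were lower (33%): Ppp1r15a (0.0922), Dnajb11, Fkbp7, Fkbp9, Tmx1, Ubxn4, Herpud2 and Sar1a. The wild-type totals were 6 higher (1.78%) and 3 lower (26.8%) of 73. Mucl2-rich cells gave 1995716 of the 3152872 UMIs pooled there. Alone they had 5 of 57 higher (1.76%) and 10 lower (65.2%), and Smgc-rich cells 1 of 57 higher (4.45%) and none lower (12.5%). In the KO library Mucl2-rich cells, only 29, had 2 of 53 higher (1.06%) and 12 lower (67.2%). Smgc-rich KO cells had 4 of 56 higher (5.33%) and 2 lower (22.4%).

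The 2 acinar-like classes differed in level within the wild-type library. Mucl2-rich cells had 9 of 30 genes lower than Smgc-rich cells, where 66.5% of all 3060 genes were lower, and none higher, against 0.817%. The 9 were Hspa5 (414 to 132 CPM, 0.32), Hsp90b1, Calr, Pdia3, Ddit3, Sec61b (882 to 320 CPM, 0.363), Tram1, Spcs1 and Krtcap2. The share of these genes called lower was below the background, and their median log2 ratio was -0.96 against -1.40 over all genes. Without the 20 top genes in the totals none was lower and 5 were higher: Herpud1 (4.21), P4hb (3.45), Sel1l (3.18), Dnajc3 (2.58) and Xbp1 (2.57). Of all genes 5.26% were higher and 2.39% lower on that scale. P4hb, the classical protein disulfide isomerase, stood at 322 CPM in Smgc-rich and 283 CPM in Mucl2-rich cells on the unadjusted scale, and Herpud1 at 149 and 159 CPM.

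Of 63 other pathway genes tested on the class total, 4 were higher in Mucl2-rich cells (0.817% of all genes) and 22 lower (66.5%). The lower ones included 7 of the 11 targeting genes: Sec61g, Sec62, Sec63, Srp9, Srp14, Srp72 and Sec11a. Chac1, a glutathione-degrading enzyme induced by the ATF4 branch, rose from 6.91 to 67.6 CPM (9.78, 4.83 to 23.1), Asns from 27.7 to 133 CPM (4.8), Creb3l1 from 13 to 60.6 CPM (4.68) and Derl3 from 23.3 to 78.2 CPM (3.35). KO Smgc-rich and Mucl2-rich cells, the latter only 29, had Chac1 at 8.39 and 69.3 CPM, Asns at 23.1 and 67.6, Creb3l1 at 2.1 and 59.2, and Derl3 at 12.6 and 28.7 CPM. Each was higher in the Mucl2-rich class there too. Ppp1r15a, which ends the translational stop, fell from 170 to 23.6 CPM. Trib3, another ATF4 output, was at 10.4 and 18 CPM in the wild-type and 14.7 and 10.1 CPM in the KO library, under 50 UMIs in every comparison of the libraries.

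Granular tubule-like cells were compared with the other duct-like cells. In the wild-type library none of 30 genes tested was higher (1.82% of 4398 genes) or lower (6.62%), and in the KO library none of 31 was higher (1.32% of 5754) or lower (4.43%). The median log2 ratio of these genes was -0.02 against -0.46 over all genes in the wild-type library, and -0.11 against -0.29 in the KO library. Sel1l, the membrane partner of the ERAD ubiquitin ligase, was at 256 against 127 CPM (2.01, 1.58 to 2.55) in the wild-type and 184 against 122 CPM (1.51) in the KO library. Pdia6 had a wild-type ratio of 2.2 and Sec11c one of 0.524. Without the top genes in the totals, Pdia6 (3.15) and Sel1l (2.89) passed in the wild-type library, where 3.34% of all genes were higher. Of 77 other pathway genes tested in the KO library, Derl3 was the 1 higher in granular tubule-like cells (34.7 against 8.37 CPM, 4.14), and none was lower. Of 65 tested in the wild-type library, Nupr1 was the 1 lower (0.348), and none was higher.

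Between the libraries the summed roles stood on opposite sides of 1 in most classes. Over 10 named classes found in both, the KO over wild-type ratio of the oligosaccharyltransferase genes was below 1 in 10, with every interval below 1 (0.325 to 0.734, median 0.534). The signal peptidase was below 1 in 10 (8 intervals, median 0.627) and the translocon in 10 (7 intervals, median 0.74). Chaperones were below 1 in 9, all with intervals below 1, the exception being macrophage-like cells (2.67). Isomerases were below 1 in 9. The regulators were above 1 in 9 (5 intervals, median 1.17) and ERAD in 9 (4 intervals, median 1.15). The haemoglobin-rich barcodes (44 and 47) were not among the 10. There the oligosaccharyltransferase genes stood at 70 CPM (10 UMIs) in the wild-type and 84.7 CPM (12 UMIs) in the KO library. The translocon was at 546 and 219 CPM, the signal peptidase at 280 and 169, the chaperones at 1009 and 663 and the isomerases at 217 and 226 CPM. Regulators were at 154 and 275 CPM (22 and 39 UMIs) and ERAD at 98.1 and 176 CPM (14 and 25 UMIs). Except for the oligosaccharyltransferase and the isomerases, the roles thus differed in the same direction as in most of the 10 classes. The median log2 ratio of all genes lay between -0.06 and 0.17 in the 10 classes. With the top genes left out of the totals, the translocon was below 1 in 9, ERAD above 1 in 8 and the regulators above 1 in 8.

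**Figure D3:**
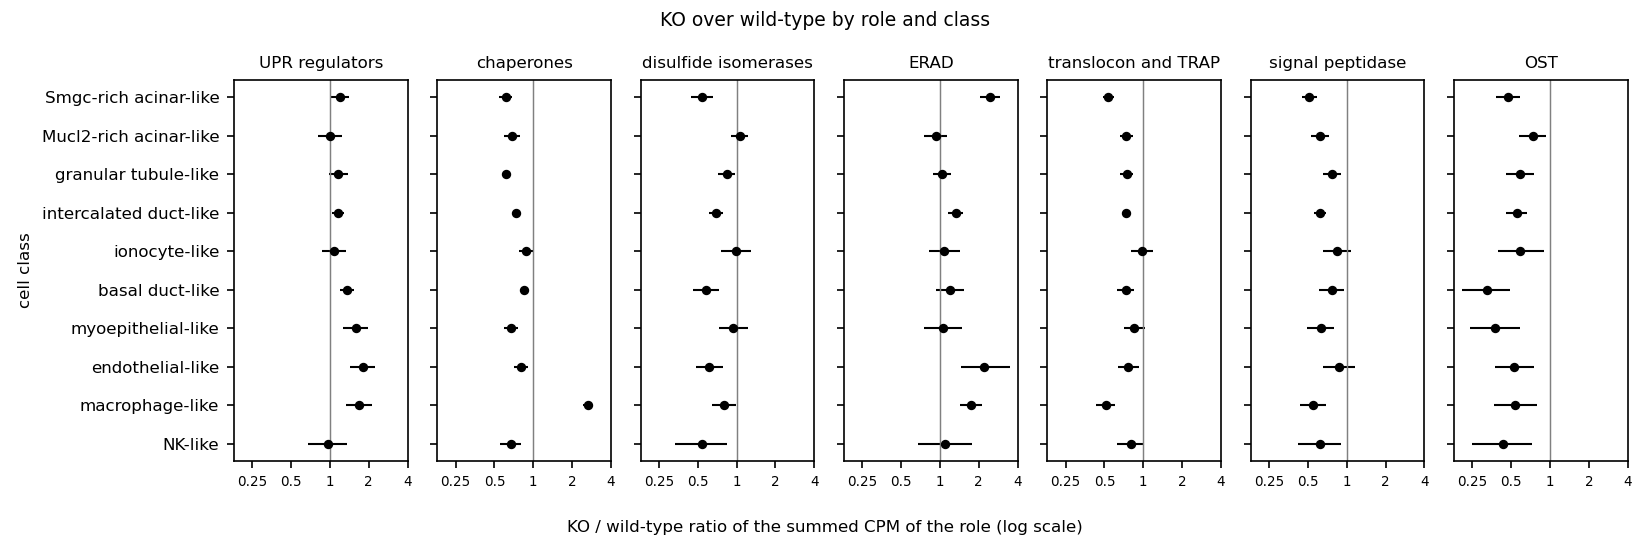
KO over wild-type ratio of the summed CPM of each role (x axis, log scale; panels are roles) in each cell class (y axis), with 95% counting intervals. Oligosaccharyltransferase (OST), signal peptidase and translocon points lie left of 1 in each of the 10 classes plotted, and the macrophage-like chaperone point lies right, at 2.67.

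Sec61b, Krtcap2 and Calr, the lectin chaperone calreticulin, were below 0 on the log2 scale in 10 of 10 classes, Spcs2 in 9 of 9 and Ostc in 5 of 5. Herpud1 was above 0 in 8 of 9, Ddit3 in 7 of 8 and Xbp1 and Dnajc3 in 7 of 9. Sec61b was also at 217 CPM in wild-type and 91.7 CPM in KO haemoglobin-rich barcodes. These classes share 1 library per genotype, so the agreement across them is not a set of independent observations. Beside these ratios, the median depth of kept cells differed between the libraries, as did the RNA quality measures. Malat1, a nuclear RNA, was higher in the KO library in each of the 10 classes. It was at 42427 CPM in wild-type and 58712 CPM in KO intercalated duct-like cells. Basal duct-like cells had 38154 and 59762 CPM and endothelial-like cells 38063 and 64672 CPM. The levels were close in macrophage-like (40738 and 42630 CPM) and Mucl2-rich cells (4725 and 4756 CPM). The part of depth and RNA quality in the ratios was not tested.

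Smgc-rich acinar-like cells held the most genes past the rule between the libraries, 5 of 29 tested. Herpud1, an ER membrane protein of ERAD (ENSMUSG00000031770, chr8:94386438-94395377), was higher (5.09% of 3003 genes were), from 149 CPM in the wild-type to 419 CPM in the KO library (2.82, 2.29 to 3.48). Lower (2.6%) were Hspa5, from 414 to 161 CPM (0.39, 0.302 to 0.497), Calr, from 213 to 71.3 CPM (0.335), Spcs2, from 418 to 136 CPM (0.326), and Ostc, from 51 to 8.39 CPM (0.164, 0.0434 to 0.444). Sec61b was at 882 and 407 CPM without passing. The 29 genes had a median log2 ratio of -0.59, against 0.09 over all genes. The class itself differed between the libraries: Smgc was at 179313 CPM in the wild-type and 40895 CPM in the KO cells, and Pip, another acinar secretory gene, at 60448 and 121600 CPM. The part of this difference in the result was not tested.

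The wild-type class also held 2 clusters where the KO class held 1. When both libraries were clustered together, 195 wild-type and 139 KO Smgc-rich cells shared a cluster, and a second one held 90 wild-type cells and 1 KO cell. Of 25 genes tested within the shared cluster 1 was higher, again Herpud1 (139 to 419 CPM, 3.01, 2.36 to 3.86), and 2 were lower, Spcs2 (0.317) and Sec61b (967 to 408 CPM, 0.422). The share of all genes called is not given for this cluster, so these counts have no background beside them. Hspa5 (0.582, 0.441 to 0.762) and Calr (0.401, 0.255 to 0.612) no longer passed. Ostc kept its ratio (0.167, 0.0434 to 0.465) but, with 38 wild-type and 4 KO UMIs, was under the minimum of 50. The entry share was 64.4% and 48.1% there. Of 60 other pathway genes tested in the whole Smgc-rich class, 3 were higher, where 5.09% of all genes were. They were Edem2 (70 to 289 CPM, 4.13), Ube2j1 (28.5 to 101 CPM, 3.53) and Nupr1 (666 to 1537 CPM, 2.31). Another 3, Fkbp2, Rpn1 (74.3 to 16.8 CPM) and Agr2 (70 wild-type UMIs and 0 KO UMIs), were lower, where 2.6% of all genes were. Rpn1, a ribophorin of the oligosaccharyltransferase, was also lower in intercalated duct-like cells (111 to 19.7 CPM). It was the 1 lower of 69 other pathway genes tested there (2.24% of all genes).

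**Figure D4:**
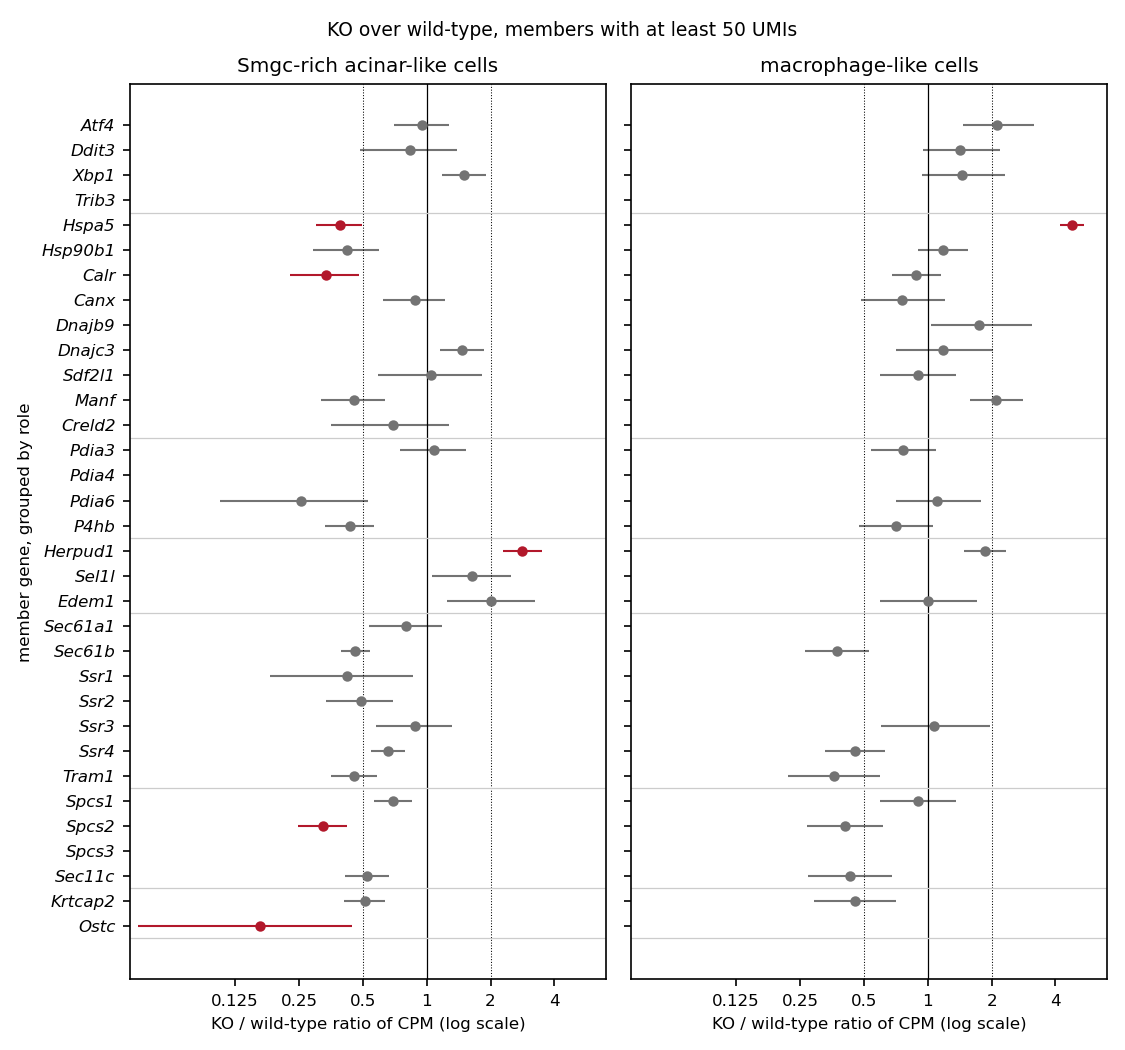
KO over wild-type ratio of CPM (x axis, log scale) for each gene with at least 50 UMIs (y axis, grouped by role), with 95% counting intervals, in separate panels per class. In Smgc-rich acinar-like cells Herpud1 stands right of 2 and Hspa5, Calr, Spcs2 and Ostc left of 0.5, and in macrophage-like cells Hspa5 stands apart at 4.78.

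Both acinar-like classes pooled had 1 of 32 genes lower (1.45%), Ostc (33.6 to 8.42 CPM), and none higher (5.18%). The 28 genes tested in Mucl2-rich cells (only 29 in the KO library) gave none higher (1.58%) or lower (1.37%). In granular tubule-like cells 1 of 28 was lower (1.46%), again Ostc, from 84 to 13.3 CPM (0.158, 0.0775 to 0.301), and none was higher (1.43%). Of 56 genes of the other lists tested in these cells, 1 was higher, Nupr1 (2.45), and none was lower. In basal duct-like cells 1 of 29 was lower (1.9%), Krtcap2, from 160 to 47.4 CPM (0.297, 0.17 to 0.485), and none was higher (1.55%). Krtcap2 and Ostc encode small subunits of the same enzyme, and none of these 3 calls passed with cells thinned to 1000 UMIs. None passed in endothelial-like (23 tested, 3.94% higher and 2.12% lower) or intercalated duct-like cells (30, 1.58% and 2.24%). The same held for ionocyte-like (25, 0.628% and 1.03%, only 44 wild-type cells), myoepithelial-like (21, 3.64% and 2.85%) and NK-like cells (9, 1.35% and 4.5%).

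Macrophage-like cells were the class in which Hspa5 passed the rule upward. It was at 1069 CPM (941 to 1211) in 79 wild-type cells and 5112 CPM (4906 to 5325) in 263 KO cells, a ratio of 4.78 (4.19 to 5.47), from 250 and 2295 UMIs. The KO value was the highest of any class in either library, and the next in the KO library was the basal duct-like 1152 CPM. It was the 1 of 24 genes tested that was higher (7.77%), and none was lower (5.05%). In KO macrophage-like cells Hspa5 gave 49.5% of the UMIs of the 33 genes. Without Hspa5 their entry share was 20.9%, against 39.4% in the wild-type cells.

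The high Hspa5 was spread over many cells. KO macrophage-like cells had quartiles of 1, 6 and 14 Hspa5 UMIs and a maximum of 44, and 33.8% (28.1 to 39.9) had at least 10. Wild-type cells had quartiles of 1, 2 and 5 and a maximum of 15, and 2.53% had at least 10. A UMI of Hspa5 was present in 86.1% of wild-type and 89.7% of KO cells, and in 63.3% and 81.7% after each cell was thinned to 1000 UMIs. In the haemoglobin-rich barcodes the thinned shares were 18.2% and 12.8%. Their 20 top genes took 66.7% and 69% of all UMIs, against 24.3% and 26% in macrophage-like cells. Thinning thus left fewer UMIs for other genes in these barcodes, which lowers their thinned shares. Whether these barcodes represent the background of free RNA was not tested. Median depths were 2519 and 1556 UMIs in macrophage-like cells and 2803 and 3123 UMIs in haemoglobin-rich barcodes.

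**Figure D5:**
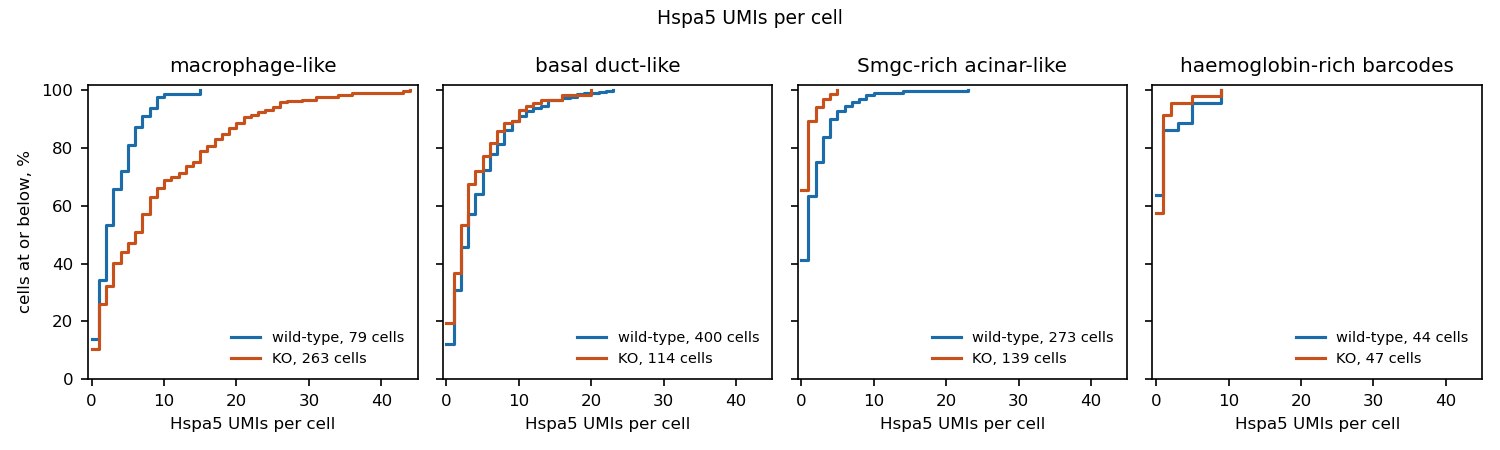
Cumulative share of cells (y axis, %) by the number of Hspa5 UMIs per cell (x axis), in separate panels per class for the wild-type and KO libraries. The KO macrophage-like curve is shifted right, with 33.8% of cells at 10 UMIs or more, whereas in Smgc-rich acinar-like cells the KO curve lies above the wild-type one.

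The other chaperones did not follow Hspa5 to that extent. Manf, a secreted ER stress protein, was at 270 and 564 CPM (2.09, 1.58 to 2.8), Dnajb9 had a ratio of 1.75 (1.04 to 3.1) and Hsp90b1 one of 1.18 (0.901 to 1.55). Calr (0.885), Canx (0.759), Dnajc3 (1.18) and Pdia6 (1.11), whose promoters also hold the long element, had intervals that included 1. Atf4 had a ratio of 2.13 (1.46 to 3.17) and Herpud1 was at 449 and 835 CPM (1.86, 1.49 to 2.33). The Herpud1 and Manf differences depended on the clustering. At Leiden resolution 2, with 77 wild-type and 114 KO cells in the class, Herpud1 was at 438 and 457 CPM and Manf at 267 and 317 CPM. With the stricter barcode filter Herpud1 was at 425 and 893 CPM and Manf at 256 and 582 CPM. Sec61b was at 351 and 131 CPM (0.375, 0.263 to 0.53), Tram1 had a ratio of 0.363 and Spcs2 one of 0.409. So within this class the regulators' and ERAD ratios were above 1 and those of the entry machinery below 1, without passing singly. Ppp1r15a, which reverses the translational stop of the unfolded protein response, was higher (471 to 1497 CPM, 3.18). It was the 1 higher of 24 other pathway genes tested (7.77% of all genes), and none was lower (5.05%).

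The KO macrophage-like class also differed in composition. Neutrophil markers had 5 UMIs in the wild-type cells (2 of 6 markers detected, S100a8, S100a9, Retnlg and Cxcr2 at 0) and 2186 UMIs in the KO cells (5 of 6 detected, Cxcr2 at 0), or 21.4 and 4869 CPM. All 8 macrophage markers were detected in both, with a summed level of 14476 and 7928 CPM. The heat shock gene Hspa1a was at 7264 and 15174 CPM. Without cells holding any neutrophil marker UMI, Hspa5 was at 985 CPM in 74 wild-type and 4952 CPM in 244 KO cells. Clustered together, the libraries shared a macrophage-like cluster of 19 wild-type and 267 KO cells, in which Hspa5 was at 680 and 4966 CPM (7.31, 5.31 to 10.4), and another cluster held 66 wild-type and 0 KO cells. The part of Hspa1a and of the differing macrophage-like clusters in the result was not tested.

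Within each library macrophage-like cells were also set against all other kept cells. In the wild-type library 3 of 33 genes were higher (4.21%), Sdf2l1 (167 against 32.5 CPM, 5.14), Herpud1 (2.82) and Edem1 (103 against 23.6 CPM, 4.34), and none was lower (0.736%). Among KO cells the same 3 were higher (Sdf2l1 7.99, Herpud1 3.25, Edem1 3.54) together with Hspa5 (8.89), Manf (4.76), Creld2 (3.19) and Pdia6 (3.27), 7 of 33 against 7.12% of all genes, and none was lower (10.3%). Sdf2l1, a BiP cofactor, and Edem1, a mannosidase-like ERAD factor, were thus high in macrophage-like cells of both libraries. Outside macrophage-like cells, Hspa5 was highest in basal duct-like cells (1057 and 1152 CPM), followed in the wild-type library by intercalated duct-like (948), myoepithelial-like (921), granular tubule-like (756) and ionocyte-like cells (743). Their KO levels were 739, 581, 461 and 683 CPM in the same order. Endothelial-like cells had 558 and 512 CPM, Smgc-rich acinar-like cells 414 and 161 CPM, and haemoglobin-rich barcodes 322 and 240 CPM. Mucl2-rich acinar-like cells had the lowest level in each library, 132 and 82.8 CPM.

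Of the remaining genes, Spcs3 and Trib3 had too few UMIs for any comparison between the libraries, Pdia4 was tested in 2 classes, and Sdf2l1, Creld2 and Edem1 in 4 each. Ssr3 (above 0 in 6 of 9 classes) and Sec61a1 (4 of 7), which encodes the channel's pore, did not share the direction of Sec61b. Ssr1 was below 0 in 5 of 6 classes, Ssr2 in 6 of 8, Tram1 in 7 of 8, Spcs1 and Sec11c in 8 of 9, and Ssr4 in 9 of 10. Among the folding genes Hsp90b1 was below 0 in 9 of 10, Pdia6 in 6 of 7, and Canx and P4hb in 7 of 9. Pdia3 was below 0 in 6 of 9 and Manf in 7 of 10. Dnajb9 was above 0 in 4 of 7, Atf4 in 6 of 10 and Sel1l in 4 of 6. None of these passed the rule in any of the 10 classes.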

How the data were processed

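The deposited files hold UMI counts per gene and barcode. The authors made them with Cell Ranger 2.1.0, and the submitters' processing notes also name bcl2fastq, Seurat 3.1.2 and the build mm10, with no roles given. The deposited counts were used as they are, 1 table per library, and 353 of 27998 gene IDs had no symbol. Kept cells (at least 200 genes, under 20% mitochondrial UMIs) were clustered per library with scanpy 1.11.5 (2000 variable genes without the genes described, the pathway lists and mitochondrial genes, 30 components, 15 neighbours, Leiden resolution 1). Clusters were named from marker lists, with thresholds set after the clusters were seen, and 183 KO cells stayed unnamed. Scrublet marked 0 wild-type and 6 KO cells (0.248%), which amounts to no removal of doublets. UMIs were summed per class, and CPM ratios carry exact conditional Poisson 95% intervals. Log2 ratios have 10 CPM added. The rule of 50 UMIs and 2-fold was run on every gene. It was also run on simulated counts with counting error only, which cannot check it against differences between cells, animals or libraries. The members and lists were chosen with earlier results of these data known. Every one of the 33 genes is accounted for, and values are given for those with at least 50 UMIs or past the rule. Classes of under 50 cells in a library were not left out of the rule. It was run on KO Mucl2-rich acinar-like cells (29) and wild-type ionocyte-like cells (44). Both classes are among the 10 compared between the libraries.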

Additional observations from a re-analysis of the deposited data

Results flagged for a closer look

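Hspa5 was past the size rule in opposite directions in different classes between the libraries. Its KO over wild-type log2 ratio was 2.25 in macrophage-like cells and -1.31 in Smgc-rich acinar-like cells. The difference between these values was not tested, since each genotype has 1 library. The macrophage-like direction was past the rule in the cluster that both libraries shared (7.31), whereas the acinar-like ratio in the shared cluster was 0.582 and did not pass.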

How the results depend on the processing

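The counts of genes past the rule depended most on depth and scaling. The percentages below are the shares of all genes called in the same direction under the same setting. With each cell thinned to 1000 UMIs, 1 of 21 genes tested was lower in wild-type acinar-like against non-secretory cells (7 of 33 as reported). Of all genes 17% were lower there. The KO library gave 4 of 27 lower (23.6%), with 8 of 30 as reported. Mucl2-rich against Smgc-rich cells gave 3 of 17 lower (58.3%), with 9 of 30 as reported. The KO over wild-type acinar-like, granular tubule-like and basal duct-like comparisons gave 0 of 18, 23 and 18 (1 lower each as reported). Of all genes 9.06%, 1.86% and 1.82% were higher there and 1.71%, 2.3% and 2.24% lower. With an interval beyond 1.5-fold the wild-type acinar-like count was 12, all lower (40.3%). The KO one was 15, with 3 higher (4.52%) and 12 lower (44.3%). Mucl2-rich against Smgc-rich cells gave 16 lower (82.3%). KO over wild-type acinar-like, granular tubule-like and basal duct-like cells gave 6 (3.98%), 2 (3.08%) and 3 (4.55%), all lower. Wild-type granular tubule-like over duct-like cells gave 1 higher (2.98%, 0 as reported). KO over wild-type macrophage-like cells gave 6 (1 as reported), with 2 higher (15.2%) and 4 lower (9.6%). Without the 20 top genes, Mucl2-rich cells gave 5 higher (5.26%), where the 9 reported were lower. Wild-type granular tubule-like over duct-like cells gave 2 higher (3.34%) and KO over wild-type acinar-like cells 4 lower (2.8%). With the median ratio set to 1 these were 3 (4.64%), 2 (3.43%) and 4 (2.5%), in the same directions. Macrophage-like cells gave 2, with 1 higher (6.88%) and 1 lower (5.68%). At least 500 genes and under 10% mitochondrial UMIs gave 4 lower for Mucl2-rich cells (54.6%). The same filter gave 0 for KO over wild-type acinar-like (14.2% higher and 1% lower) and granular tubule-like cells (3.37% and 3.56%). Leiden resolution 2 gave 1 higher for wild-type granular tubule-like over duct-like cells (1.72%). For KO over wild-type granular tubule-like cells it gave 0 (1.68% higher and 1.34% lower). Without the deepest 5% of cells the KO over wild-type acinar-like, granular tubule-like and basal duct-like counts were 0. Of all genes 1.3%, 1.46% and 1.99% were lower there. The macrophage-like count was then 2, with 1 higher (7.78%) and 1 lower (5.23%). It was also 2 with no barcode filter (7.41% and 5.04%). In the shared cluster it was 2 of 22 tested, with Hspa5 higher and Sec11c lower, and the share of all genes called is not given there.

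Of the 9 genes lower in Mucl2-rich than Smgc-rich cells, 8 turned above 0 (log2) without the 20 top genes and with the median ratio set to 1: Hspa5 0.32 and 0.21, Hsp90b1 0.45 and 0.33, Calr 0.66 and 0.54, Pdia3 0.46 and 0.34, Sec61b 0.51 and 0.39, Tram1 0.61 and 0.49, Spcs1 0.34 and 0.22, and Krtcap2 0.68 and 0.57. The median over all genes moved from -1.40 to 0.10 and 0. The cause of the other changes was not tested. The entry machinery share stayed within its interval in 160 of 183 recomputed values. Hspa5 in macrophage-like cells stayed past the rule under the settings run on the named class, between log2 ratios of 1.81 (Leiden resolution 2, where the class held 114 of the 263 KO cells) and 2.37, and its ratio of 7.31 in the shared cluster lay above that range. The Ostc calls in pooled acinar-like and granular tubule-like cells and the Krtcap2 call in basal duct-like cells did not pass after thinning or without the deepest cells. No paired analysis was possible because each genotype has 1 library. Clustering both libraries together left too few KO basal duct-like cells for a value.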
